A study of Mus musculus with 6 samples.

Results

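The CC chemokine ligands of myeloid recruitment were 10 genes, Ccl2, Ccl3, Ccl4, Ccl5, Ccl6, Ccl7, Ccl8, Ccl9, Ccl12 and Ccl22, chosen by name from the 31130 genes listed for each tumor. Bulk RNA was sequenced from lung tumors of 2 mouse models, one with cancer alone (LC, 3 tumors) and one in which interstitial pneumonia preceded the cancer (IP+LC, 3 tumors). By the labels both groups were wild-type and the tumors were of Lewis lung carcinoma, a lung cancer line of C57BL/6 origin, which in the study's methods carried green fluorescent protein. The methods give female mice aged 6 to 8 weeks, cells injected into the left lung on day 14 and tumors taken on day 21. They name C57BL/6 and B6D2F1/Crl mice, and the study's results pair Lewis lung carcinoma cells with C57BL/6 mice. The groups differed on day 0, when IP+LC mice inhaled bleomycin at 2.0 mg/kg, an agent that causes lung fibrosis, and LC mice were given saline. The comparison addressed how expression in the tumor differs when the lung was given bleomycin beforehand. It does not separate fibrosis from other effects of the agent. All tumors came from 1 cell line.

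CC chemokines are small secreted proteins that attract leukocytes through G protein-coupled receptors, and each carries a pair of adjacent cysteines near its amino end. Ccl2, Ccl7, Ccl8 and Ccl12 form the monocyte chemoattractant protein family, and Ccl2 acting on Ccr2 draws monocytes out of the bone marrow into inflamed tissue and tumors. Ccl3, Ccl4 and Ccl5 attract monocytes, macrophages and T cells, and Ccl3 and Ccl5 act on Ccr1. Ccl6 and Ccl9 are rodent ligands of Ccr1 made largely by myeloid cells, and Ccl22, like Ccl17, attracts cells that carry Ccr4, including regulatory T cells.

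The feature that names the family is shown for all 10 genes as 60 coding bases from the GENCODE M21 annotation of build GRCm38, printed 5′ to 3′ on the coding strand. The capitals mark the codons of the adjacent cysteines, and each stretch lies within a single exon.
Ccl2, chr11:82036500-82036559, plus strand, exon 2: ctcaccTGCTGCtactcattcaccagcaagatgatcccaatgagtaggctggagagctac
Ccl7, chr11:82046532-82046591, plus strand, exon 2: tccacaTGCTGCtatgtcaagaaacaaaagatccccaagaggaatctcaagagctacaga
Ccl12, chr11:82102628-82102687, plus strand, exon 2: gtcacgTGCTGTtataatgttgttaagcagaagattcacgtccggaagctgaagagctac
Ccl8, chr11:82116050-82116109, plus strand, exon 2: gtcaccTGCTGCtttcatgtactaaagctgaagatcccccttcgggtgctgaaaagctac
Ccl3, chr11:83648604-83648663, minus strand, exon 2: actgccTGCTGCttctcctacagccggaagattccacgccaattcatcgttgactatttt
Ccl4, chr11:83663476-83663535, plus strand, exon 2: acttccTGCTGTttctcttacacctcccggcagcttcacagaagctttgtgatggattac
Ccl5, chr11:83529194-83529253, minus strand, exon 2: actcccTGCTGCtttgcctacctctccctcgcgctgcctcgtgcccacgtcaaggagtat
Ccl6, chr11:83589338-83589397, minus strand, exon 3: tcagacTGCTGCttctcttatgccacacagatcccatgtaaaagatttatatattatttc
Ccl9, chr11:83575878-83575937, minus strand, exon 3: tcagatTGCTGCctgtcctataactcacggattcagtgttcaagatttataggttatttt
Ccl22, chr8:94746928-94746987, plus strand, exon 2: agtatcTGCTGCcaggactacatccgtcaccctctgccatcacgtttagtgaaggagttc
The second cysteine codon was TGT in Ccl4 and Ccl12 and TGC in the other 8 genes. Over their whole length the coding sequences differed widely. The most similar pair was Ccl3 and Ccl4, with 66.7% identical aligned columns, followed by Ccl6 and Ccl9 with 64.6% and Ccl8 and Ccl12 with 64.4%. Ccl2 had the longest reading frame, of 148 codons, and shared 47.5% of columns with Ccl12 and 44.6% with Ccl7. No transcript of the other 9 genes shared a stretch of 81 bases, the length of the insert read, at 95% identity or more with a transcript of another gene. Ccl9 did, over 164 of the 3006 bases of its transcript (5.46%, bases 1444 to 1607), with transcripts of 97 other genes on either strand. Its counts may be less certain for this reason, which was not tested.

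The values are counts of unique molecular identifiers (UMIs), random tags that mark single RNA molecules before amplification, read from the 3′ end of transcripts. The 6 libraries held 592733 to 1631066 UMIs. LC replicate 1 was the shallowest, and 3 UMIs corresponded there to 5.17 CPM (counts scaled to a fixed total over the tested genes, after TMM normalization) against 1.75 to 2.54 CPM in the other libraries. In LC replicate 1 the summed macrophage, monocyte and proliferation markers were the highest of the LC tumors (2414, 945 and 313 CPM) and those of alveolar macrophages and endothelium the lowest (1715 and 653 CPM). It also held the highest LC level of 8 of the 10 ligands, so results that rest on it are given with and without it. It was singled out for its levels of these same ligands, and leaving out the highest control raises a fold change by construction, so values without it are a description and no further evidence of a difference. Of 11240 genes tested with the edgeR quasi-likelihood test, 1885 were higher (16.8%) and 2203 lower (19.6%) in IP+LC at a Benjamini-Hochberg adjusted p under 0.1, a split of 46.1% higher that became 58.3% when libraries were scaled by size only, which moved the median log2 fold change by 0.16. Every IP+LC tumor lay above every LC tumor for 2424 genes (21.6%). The labels call the samples tumors and separate animals are not stated, so p-values measure the spread between these tumors. Alveolar epithelial markers summed to 36209.8 to 45096.9 CPM in LC and 6289 to 11425 CPM in IP+LC. The labels give lung cancer cells as the cell type, whereas these markers of normal lung were present in every tumor and differed between the groups without overlap, and their part in the ligand levels was not tested. In such bulk samples, fewer cells of a type and less RNA per cell cannot be told apart.

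All 10 ligands passed the filter on low counts, although for Ccl3, Ccl4, Ccl12 and Ccl22 the LC libraries alone would not have passed it. Ccl2, Ccl3 and Ccl4 rose in IP+LC, 3 of 10 against 16.8% of all tested genes, and 7 ligands did not pass the test. None was lower in the edgeR quasi-likelihood test (0 of 10 against 19.6% of all genes), none had an unadjusted p under 0.05 in that direction, and DESeq2 and limma voom also called 0. In 4 ligands, Ccl2, Ccl3, Ccl4 and Ccl7, every IP+LC tumor lay above every LC tumor, against 21.6% of all tested genes. The median log2 fold change of the 10 was 1.47, and that of all tested genes was 0.02. The count of 3 depended on single libraries. It was 8 with LC replicate 1 left out, 1 with LC replicate 2 left out, and 2 when either IP+LC replicate 2 or 3 was left out. The number of all genes called in either direction moved as well, from 4088 to 6691, 2585, 2265 and 3137 in these fits.

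**Figure D1:**
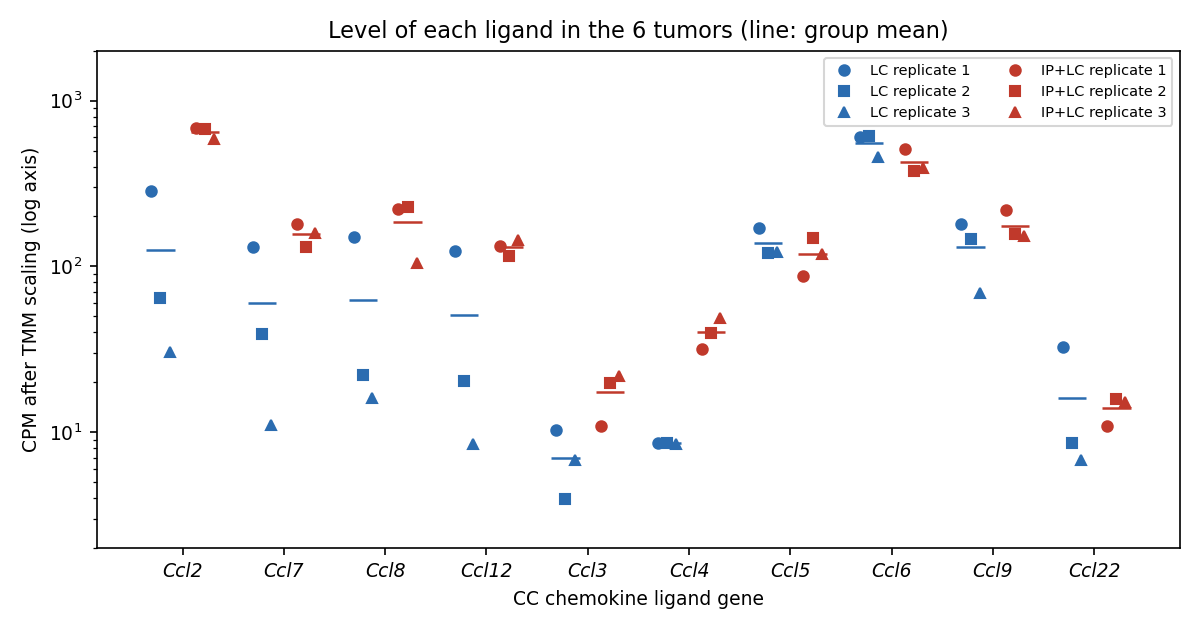
The CPM of each ligand in each tumor is plotted on a log axis, with LC in blue, IP+LC in red, replicates 1 to 3 as circles, squares and triangles, and lines at the group means. For Ccl2, Ccl7, Ccl8 and Ccl12 the LC circle sits apart from the other LC tumors, whereas for Ccl4 the LC tumors lie between 8.47 and 8.62 CPM and all IP+LC tumors at 31.9 CPM or more.

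Among the monocyte chemoattractant proteins, Ccl2 was measured at 284, 64.2 and 30.5 CPM in LC replicates 1 to 3 and at 685, 675 and 583 CPM in the IP+LC tumors. The groups did not overlap, and the lowest IP+LC tumor was above LC replicate 1, the highest of the LC tumors. The mean rose from 126 ± 138 CPM to 648 ± 56.2 CPM (SD, n = 3 each), a log2 fold change of 2.41 with an SE of 0.66 (edgeR quasi-likelihood, adjusted p = 0.0266). Leaving out LC replicate 1 gave a log2 fold change of 3.77 with an SE of 0.23, and leaving out LC replicate 2 ended the call (2.08, adjusted p = 0.110).

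Ccl7, which attracts monocytes and also eosinophils, was at 131, 39.2 and 11.02 CPM in LC and at 181, 131 and 159 CPM in IP+LC. The groups came close at the lower end of IP+LC, where IP+LC replicate 2 exceeded LC replicate 1 by less than 1 CPM. Its log2 fold change was 1.49 with an SE of 0.64, which did not pass the test (adjusted p = 0.115).

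Ccl8 was at 150 CPM in LC replicate 1, 21.9 in LC replicate 2 and 16.1 in LC replicate 3, and at 223, 227 and 105 CPM in IP+LC. LC replicate 1 lay above IP+LC replicate 3, so the groups overlapped. The log2 fold change was 1.70 with an SE of 0.73 (adjusted p = 0.116).

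Ccl12, a mouse ligand of Ccr2, was at 124, 20.4 and 8.47 CPM in LC and at 133, 116 and 144 CPM in IP+LC. Here too 1 LC tumor, replicate 1, reached into the IP+LC range. The log2 fold change was 1.53 with an SE of 0.72 (adjusted p = 0.148).

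In these 4 genes LC replicate 1 stood far above the other LC tumors, and to a lesser degree it did so in other ligands. LC replicate 1 exceeded the mean of the other LC tumors 5.997-fold for Ccl2, 5.22-fold for Ccl7, 7.88-fold for Ccl8 and 8.60-fold for Ccl12. The ratio was 4.25-fold for Ccl22, 1.93-fold for Ccl3, 1.66-fold for Ccl9, 1.41-fold for Ccl5, 1.13-fold for Ccl6 and 1.007-fold for Ccl4, the last from 5 UMIs in LC replicate 1. The coefficients of variation of Ccl2, Ccl7, Ccl8 and Ccl12 were 104% to 125% in LC and 8.67% to 37.3% in IP+LC. With LC replicate 1 left out, all 4 were under the limit, and the log2 fold changes were 2.62 for Ccl7, 3.29 for Ccl8 and 3.16 for Ccl12. With LC replicate 2 left out they were 1.24, 1.24 and 1.09 (edgeR quasi-likelihood, adjusted p = 0.318 to 0.398), and with LC replicate 3 left out 0.94, 1.198 and 0.96 (adjusted p = 0.179 to 0.286). Each also passed in several other settings with all 6 tumors, Ccl7 and Ccl8 in 6 and Ccl12 in 3. Among those settings were the replicate block and the fit with no filter beyond 1 UMI. In the latter the SE of each of the 3 genes was 0.29, against 0.64 to 0.73 in the main fit, so these passes are a description only.

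**Figure D2:**
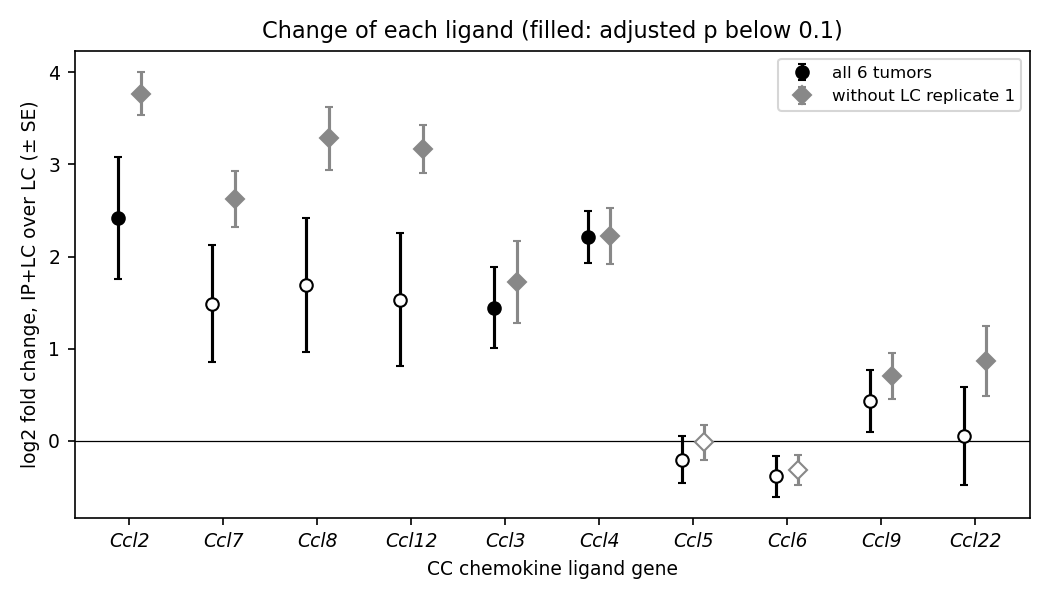
The log2 fold change of each ligand, IP+LC over LC, is plotted with its SE from all 6 tumors (black circles) and without LC replicate 1 (gray diamonds), with filled symbols at an adjusted p under 0.1. Without that tumor the SE of Ccl2 falls from 0.66 to 0.23, and 8 of 10 ligands have filled symbols, in a fit in which the genes called among all tested also rose from 4088 to 6691.

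The pair of macrophage inflammatory proteins, Ccl3 and Ccl4, was scarce in both groups. Ccl4 was at 8.61, 8.62 and 8.47 CPM in LC, from 5 to 11 UMIs a tumor, and at 31.9, 39.7 and 48.7 CPM in IP+LC, from 44 to 68 UMIs. The LC tumors were close to each other and far below the IP+LC tumors, including LC replicate 1. Ccl4 rose by a log2 fold change of 2.21 with an SE of 0.28 (adjusted p = 0.00137), and it was at 2.08 to 2.45 in the 16 alternatives in which it was tested. It passed the filter through the IP+LC libraries, and the alternative that required 10 UMIs in every library left it out.

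Ccl3, a ligand of Ccr1, was at 10.3, 3.92 and 6.78 CPM in LC and at 10.9, 19.8 and 21.8 CPM in IP+LC, and IP+LC replicate 1 was only just above LC replicate 1. With LC replicate 1 left out the log2 fold change of Ccl3 was 1.73. It rested on 5 to 8 UMIs in each LC tumor and 15 to 34 in each IP+LC tumor, and it passed the filter through the IP+LC libraries. It rose by a log2 fold change of 1.45 with an SE of 0.43 (adjusted p = 0.0370), a call lost when LC replicate 2 or either of IP+LC replicates 2 and 3 was left out (adjusted p = 0.126 to 0.168) and after thinning every library to the same total of UMIs (log2 fold change 2.16, adjusted p = 0.103).

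The remaining ligands did not pass the test. Ccl6 was at 603, 611 and 457 CPM in LC and at 508, 378 and 391 CPM in IP+LC, overlapping through IP+LC replicate 1. Its log2 fold change was -0.39 with an SE of 0.22 (adjusted p = 0.225), the lowest of the 10 ligands, and it was below 0 in all 17 alternatives (-0.52 to -0.24) without passing in any.

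Ccl5, made by T cells and NK cells as well as myeloid cells, was at 170 CPM, 121 CPM and 121 CPM in LC and at 87.0, 149 and 118 CPM in IP+LC. The groups overlapped, with a log2 fold change of -0.21 and an SE of 0.26 (adjusted p = 0.584). Of the 6 tested T cell markers 0 were called, against 16.8% of all tested genes higher and 19.6% lower. The sum of the 7 T cell markers listed ranged from 114 to 143 CPM in LC and from 91.4 to 186 CPM in IP+LC. Of the 3 tested NK cell markers 1 was lower and 0 higher. The sum of the 5 NK cell markers listed ranged from 32.7 to 65.3 CPM in LC and from 40.6 to 45.0 CPM in IP+LC.

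Ccl9 was at 179, 147 and 68.6 CPM in LC and at 218, 156 and 153 CPM in IP+LC, again with overlap through LC replicate 1. The log2 fold change was 0.44 with an SE of 0.34 (adjusted p = 0.367), and with single tumors left out it ran from 0.11 (LC replicate 3, adjusted p = 0.802) to 0.71 (LC replicate 1, adjusted p = 0.0281), with 0.27 for IP+LC replicate 1.

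Ccl22 was at 32.7, 8.62 and 6.78 CPM in LC and at 10.9, 15.8 and 15.2 CPM in IP+LC, so that the highest and the lowest tumors were both LC tumors. It had no stable direction. The log2 fold change was 0.05 with an SE of 0.53 (adjusted p = 0.961), between -0.36 and 0.87 over the alternatives, and the highest value, from the fit that left out LC replicate 1, was called (adjusted p = 0.0690).

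Since each molecule gives a tag at its 3′ end, CPM were compared between genes without division by transcript length. In LC tumors Ccl6 had the highest level, at 557 ± 86.8 CPM, and its range did not touch that of Ccl5, the next. From Ccl5 down to Ccl3 no neighbor in the order was separate from the next. In IP+LC tumors Ccl2 was first at 648 ± 56.2 CPM, followed by Ccl6 at 426 ± 71.6 CPM and Ccl8 at 185 ± 69.1 CPM, and the ranges of these 3 did not touch. Ccl8, Ccl9, Ccl7, Ccl12 and Ccl5 followed with overlapping neighbors, Ccl4 was separate below them, Ccl3 was separate below Ccl4, and Ccl3 and Ccl22 overlapped.

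The pool of ligand transcripts changed its makeup with these levels. Ccl2, Ccl7, Ccl8 and Ccl12 together made up 40.7% of the UMIs of the 10 ligands in LC replicate 1 (exact 95% binomial interval 37.6% to 43.8%), 13.9% in LC replicate 2 (12.1% to 15.9%) and 9.00% in LC replicate 3 (7.18% to 11.1%). In the IP+LC tumors they made up 58.5% (56.7% to 60.3%), 60.2% (58.5% to 61.9%) and 57.0% (55.0% to 59.0%). The intervals cover counting error only. The IP+LC tumors were close to each other and all above the LC tumors, which ranged widely.
The share of Ccl6 went the other way, with 35.6%, 58.5% and 62.2% of the pool in LC and 24.3%, 19.8% and 22.5% in IP+LC. Ccl5 held 10.1%, 11.5% and 16.5% in LC and 4.17%, 7.80% and 6.80% in IP+LC, also without overlap. Shares of a pool sum to a fixed total, so these falls accompany the rise of other ligands and say nothing of the levels of Ccl6 and Ccl5, which overlapped between the groups and did not pass the test. There were 0.471, 0.105 and 0.0668 Ccl2 UMIs per Ccl6 UMI in LC and 1.35, 1.78 and 1.49 in IP+LC, so that Ccl2 outnumbered Ccl6 in every IP+LC tumor and in no LC tumor.

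**Figure D3:**
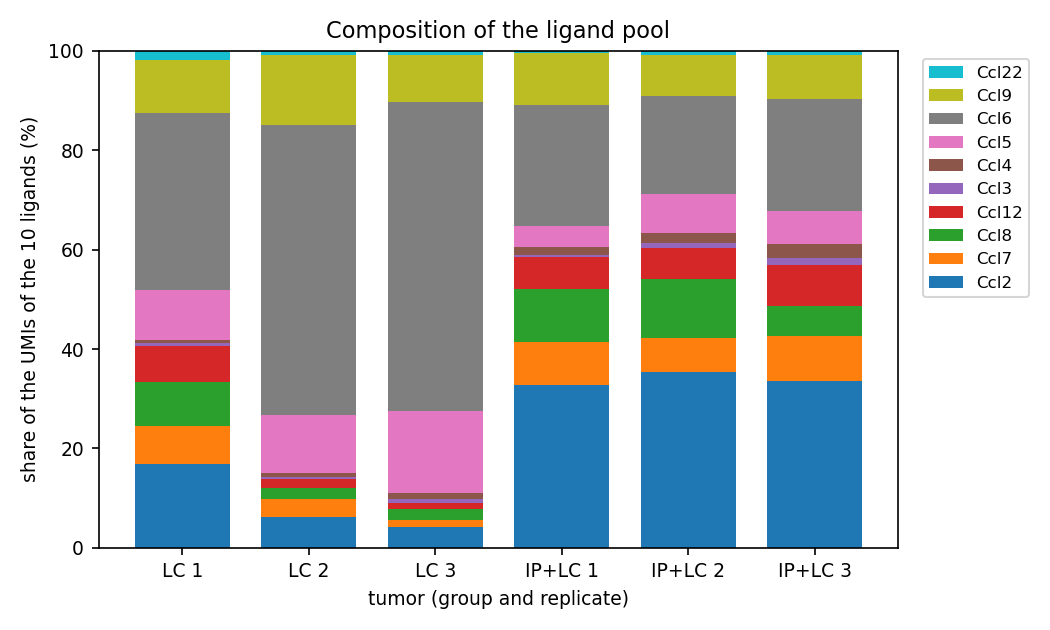
Bars show the share of each ligand in the UMIs of the 10 ligands in each tumor. Ccl2, Ccl7, Ccl8 and Ccl12, stacked from the bottom, reach 57.0% to 60.2% in IP+LC and 9.00% to 40.7% in LC.

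Of the 10 macrophage markers 4 were higher in IP+LC, against 16.8% of all tested genes, and 0 lower, against 19.6%. Their sum ranged from 719 to 2414 CPM in LC and from 2412 to 3045 CPM in IP+LC, with LC replicate 1 at the top of the LC range. Much of this sum came from C1qa, C1qb and C1qc, with group means of 277 to 287 CPM in LC and 614 to 703 CPM in IP+LC. Some of the other macrophage markers had log2 fold changes below 0, none of them called. Of 6 monocyte markers 5 were higher and 0 lower (608 to 945 CPM against 1234 to 1450 CPM). The same shares of all tested genes, 16.8% higher and 19.6% lower, stand beside this count and those of the lists that follow. All 8 alveolar macrophage markers were lower (1715 to 2147 CPM against 234 to 472 CPM), with Krt79 at 0 UMIs in a library. Neutrophil markers summed to 821 to 1957 CPM in LC and 264 to 344 CPM in IP+LC, with 3 of 6 lower. Of 5 proliferation markers all were higher (95.8 to 313 CPM against 849 to 983 CPM). The part of these cell types in the ligand levels was not tested.

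Per 100 UMIs of the 10 macrophage markers, Ccl2 was at 11.8, 6.65 and 4.24 UMIs in LC and 28.4, 22.2 and 21.4 in IP+LC, without overlap. Ccl4 was at 0.357, 0.891 and 1.18 in LC and 1.32, 1.30 and 1.79 in IP+LC, again without overlap. Ccl7, Ccl8, Ccl12, Ccl9 and Ccl3 overlapped on this scale, Ccl3 with group means of 0.592 and 0.634.
On the same scale Ccl6, Ccl5 and Ccl22 lay below the LC tumors in every IP+LC tumor. Ccl6 was at 24.96, 63.2 and 63.5 in LC and 21.1, 12.4 and 14.4 in IP+LC, Ccl5 at 7.06, 12.5 and 16.8 in LC and 3.61, 4.89 and 4.34 in IP+LC. The separation of some ligands depended on the markers used. Per 100 UMIs of the 4 leukocyte markers, Ccl3 was at 0.913, 0.495 and 0.734 in LC and 1.12, 1.44 and 1.55 in IP+LC, without overlap. On that scale Ccl6 overlapped, at 53.3, 77.2 and 49.4 in LC and 52.4, 27.4 and 27.9 in IP+LC, and so did Ccl22, with group means of 1.57 and 1.12. Ccl2 and Ccl4 stayed above and Ccl5 below the LC tumors in every IP+LC tumor. With 3 tumors a group an exact permutation test cannot give a two-sided p under 0.1, so these ratios are given without a test.

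**Figure D4:**
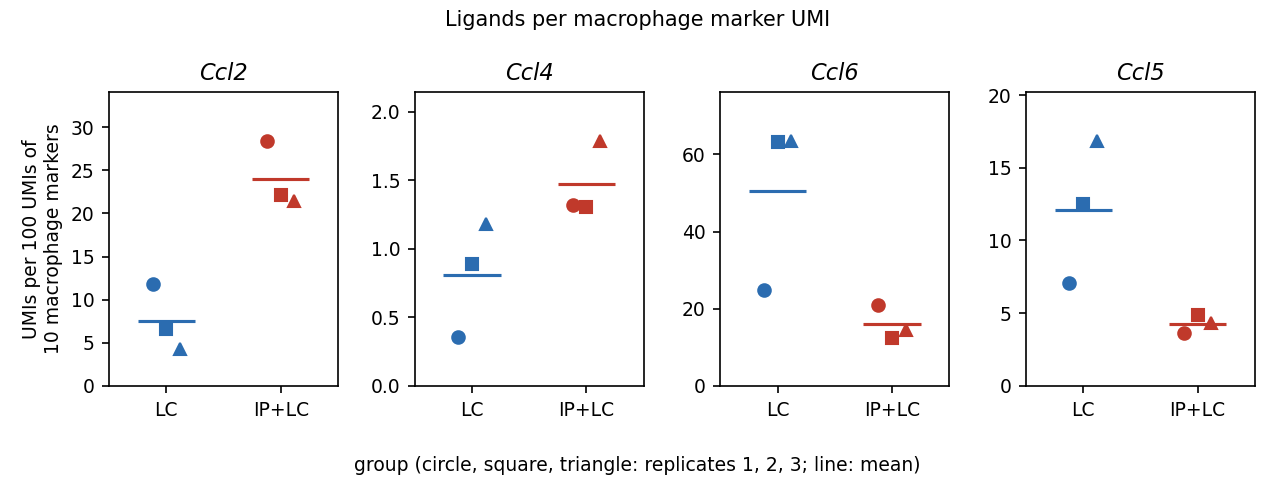
UMIs of Ccl2, Ccl4, Ccl6 and Ccl5 are plotted per 100 UMIs of 10 macrophage markers in each tumor, with lines at the group means and axes from 0. Ccl2 and Ccl4 are higher in every IP+LC tumor, at 21.4 to 28.4 and 1.30 to 1.79, and Ccl6 and Ccl5 are lower.

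Of 15 CC receptors and decoy receptors in the files 6 were tested, of which 3 were higher, against 16.8% of all tested genes, 2 lower, against 19.6%, and 1 (Ackr2) not called. Ccr2, the receptor of Ccl2, Ccl7 and Ccl12, was at 87.8, 131 and 151 CPM in LC and at 168, 219 and 208 CPM in IP+LC. It rose by a log2 fold change of 0.67 with an SE of 0.24 (adjusted p = 0.0682), a call that was lost in 6 of 17 alternatives, including those that left out LC replicate 2 or any IP+LC tumor.
Ccr1 overlapped between the groups, at 84.4, 42.3 and 50.8 CPM in LC and 75.4, 105 and 108 CPM in IP+LC. Its log2 fold change of 0.74 (adjusted p = 0.0849) failed in 10 of 17 alternatives, among them each that left out a tumor other than LC replicate 1. The overlap came through LC replicate 1, and with that tumor left out the log2 fold change of Ccr1 was 1.06. Unlike Ccl2, Ccr2 was lower in LC replicate 1 than in the other LC tumors, and per 100 macrophage marker UMIs Ccr2 and Ccr1 overlapped between the groups.
Ccrl2, an atypical receptor that presents chemoattractant, was lower in IP+LC, with a log2 fold change of -1.01 and an SE of 0.24 (adjusted p = 0.0143), a call lost only after thinning. Ccr7, which guides dendritic cells and T cells to lymph nodes, was lower by a log2 fold change of -0.70 (adjusted p = 0.0739), a call lost in 9 of 17 alternatives, including those that left out LC replicate 2 or 3 or IP+LC replicate 1 or 3. Ackr4, a scavenger of Ccr7 ligands, was not tested at 3, 14 and 20 UMIs in LC and 2, 2 and 1 UMIs in IP+LC.

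Of 14 other CC ligands 10 were in the files and 2 were tested. Ccl17, which shares the receptor of Ccl22, fell by 1.79 on the log2 scale with an SE of 0.52 (adjusted p = 0.0334), from 53.4, 15.7 and 23.7 CPM in LC to 5.08, 6.42 and 13.1 CPM in IP+LC, a call lost when either of IP+LC replicates 1 and 2 was left out and after thinning. Ccl11, an eosinophil attractant, was at 12.0 ± 4.77 CPM in LC and 19.9 ± 15.2 CPM in IP+LC (log2 fold change 0.81, adjusted p = 0.327), and its log2 fold change was 0.05 with IP+LC replicate 1 left out. There were 0.613, 0.550 and 0.286 Ccl22 UMIs per Ccl17 UMI in LC and 2.14, 2.45 and 1.17 in IP+LC, so the balance of the Ccr4 ligands differed without overlap although Ccl22 itself did not pass the test.

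A list of 18 genes linked to the induction of CC chemokines held cytokines, transcription factors and regulators of NF-kB, an inhibitor included. Of these 12 were tested and 7 were higher, against 16.8% of all tested genes, with 0 lower, against 19.6%. Irf1, an interferon-induced transcription factor, rose with a log2 fold change of 1.84 (adjusted p = 0.00511), and Csf1, the macrophage growth factor, with 2.14 (adjusted p = 0.00934). Csf1 too was highest among the LC tumors in replicate 1, and its log2 fold change was 2.93 with that tumor left out. Nfkbiz, a nuclear cofactor of NF-kB, rose with 1.102 (adjusted p = 0.00766). Irf1 and Csf1 were called in all 17 alternatives, and Nfkbiz in 16. Ifng was not tested at 0 UMIs in each LC tumor and 8, 14 and 11 UMIs in IP+LC, and Tnf at 0, 3 and 0 UMIs against 8, 13 and 12.
Of 17 tested genes of receptor signaling, 3 were higher, against 16.8% of all tested genes, and 1 was lower, against 19.6%, so the count higher was near that of all genes. Gnai2, the inhibitory G protein subunit that couples chemokine receptors, rose with a log2 fold change of 0.67 (adjusted p = 0.0311), Arrb2 with 1.01 (adjusted p = 0.0236) and Dock2 with 0.96 (adjusted p = 0.0465). Arrb1 fell by 0.87 on the log2 scale (adjusted p = 0.0202). Each of these 4 calls was lost with at least 1 tumor left out, Gnai2 with IP+LC replicate 2 (adjusted p = 0.111), Arrb2 with LC replicate 2 (adjusted p = 0.112), Arrb1 with IP+LC replicate 1 (adjusted p = 0.109) and Dock2 with any of LC replicate 3 and IP+LC replicates 2 and 3 (adjusted p = 0.118 to 0.144). Arrestins bind activated receptors and end their G protein signal, and Dock2 activates Rac in migrating leukocytes.

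By position, 9 of the 10 ligands lay on chromosome 11 in build GRCm38 and Ccl22 on chromosome 8 (94745590 to 94751699). Ccl2, Ccl7, Ccl12 and Ccl8 stood in this order within 81.2 kb, all on the plus strand, from chr11:82035571 to 82116799. Ccl5, Ccl9, Ccl6, Ccl3 and Ccl4 stood within 138.9 kb, from 83525778 to 83664683, and a gap of 1409 kb parted the blocks. No exon of a ligand overlapped an exon of another gene.
In the first block the log2 fold changes were 1.49 to 2.41 and only Ccl2 passed the test. In the second they ranged from -0.39 for Ccl6 to 2.21 for Ccl4, with Ccl3 and Ccl4 at the far end called and Ccl5, Ccl9 and Ccl6 not. Of the 18 other tested genes between Ccl2 and Ccl4, 8 were higher, against 16.8% of all tested genes, and 1 was lower, against 19.6%. The median log2 fold change of the 18 was 0.75. All 8 lay in the gap between the blocks, and Slfn1, Slfn2, Slfn8, Slfn9 and Slfn10-ps, genes of a single family, were among them. Within the blocks Ccl11 was the only other tested gene, and it was not called.

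**Figure D5:**
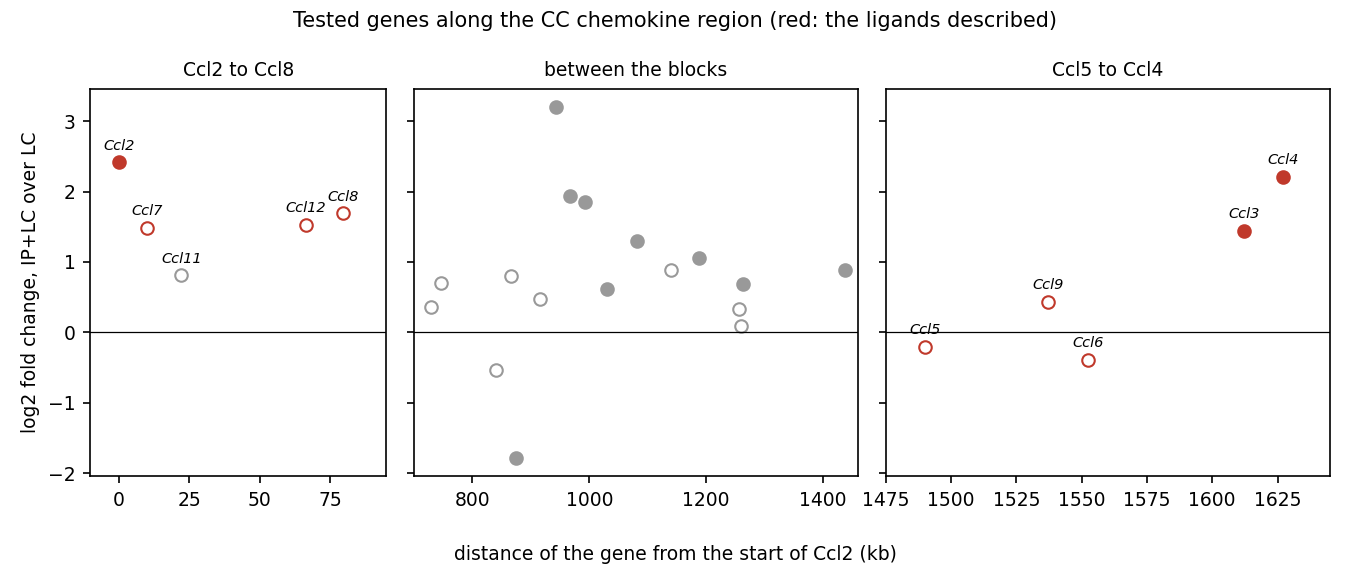
The log2 fold change of each tested gene is plotted against its distance from the start of Ccl2 in kb, in 3 panels for the blocks and the gap between them, with the ligands in red, other genes in gray and filled symbols at an adjusted p under 0.1. Of the 4 ligands of the first block Ccl2 is highest, and in the second block Ccl3 and Ccl4 stand above Ccl5, Ccl9 and Ccl6.

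RefSeq promoter windows of GRCm38.p6 were held for 6 of the 10 ligands, and the 250 bases before the start are shown for Ccl8 and Ccl12, neighbors in the first block, and for Ccl9, the only one of these 6 with matches beyond a TATA box. None of the 3 genes passed the quasi-likelihood test over all 6 tumors. The capitals mark matches to the motifs searched.
Ccl8, chr11:82114935-82115184, plus strand: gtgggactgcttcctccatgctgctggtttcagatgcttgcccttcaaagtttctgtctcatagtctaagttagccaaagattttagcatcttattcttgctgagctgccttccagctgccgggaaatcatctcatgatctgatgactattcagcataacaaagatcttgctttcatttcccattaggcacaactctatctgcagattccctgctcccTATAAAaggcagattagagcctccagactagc
Ccl12, chr11:82101595-82101844, plus strand: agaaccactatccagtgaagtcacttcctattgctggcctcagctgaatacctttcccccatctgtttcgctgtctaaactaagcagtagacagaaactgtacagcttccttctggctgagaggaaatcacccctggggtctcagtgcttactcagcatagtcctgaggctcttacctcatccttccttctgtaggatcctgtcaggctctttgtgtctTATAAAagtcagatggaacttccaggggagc
Ccl9, chr11:83578637-83578886, minus strand: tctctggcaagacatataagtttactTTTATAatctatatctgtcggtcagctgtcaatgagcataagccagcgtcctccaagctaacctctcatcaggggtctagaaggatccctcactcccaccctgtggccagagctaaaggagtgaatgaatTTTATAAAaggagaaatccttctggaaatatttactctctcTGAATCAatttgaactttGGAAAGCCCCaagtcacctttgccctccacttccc
Searched on both strands were NF-kB, an interferon-stimulated response element (GAAANNGAAA), AP-1 (TGANTCA), a gamma-activated site (TTCNNNGAA) and a TATA box (TATAAA). Ccl8 and Ccl12 each held a TATA box, 32 and 31 bases before the start, and no other match. Ccl9 held an NF-kB match 35 bases before the start, an AP-1 match at 53 bases, and TATA matches at 92, 94 and 224 bases, of which the first pair overlap. Among 32851 windows of this length, NF-kB matched in 3.9%, the interferon element in 2.98%, AP-1 in 6.75%, the gamma-activated site in 7.02% and the TATA box in 12.4%. The windows of Ccl3, Ccl6 and Ccl22 held no match. A match is a description of the letters only.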

How the data were processed

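Bulk RNA barcoding and sequencing, a 3′ method with an oligo-dT primer carrying a 10-base UMI, was applied to 6 lung tumors. The deposited values were raw UMI counts per gene, 1 table a tumor. Per the study's methods and the submitters' processing notes, the authors extracted UMIs and removed duplicates with UMI-tools 1.1.1, trimmed with Trim Galore 0.6.7, mapped to GRCm38 with HISAT2 2.2.1 and counted with featureCounts 2.0.1. The notes also name DESeq2. The strand setting and annotation release were not given in the sources used here, so reads from antisense genes may not be separated.

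Genes were tested in R 4.3.3 with edgeR 4.0.16 (filterByExpr with a minimum count of 10 and minimum total of 15, TMM, quasi-likelihood test over 3 against 3 tumors, Benjamini-Hochberg over 11240 genes, limit 0.1, the limit used in the study). The SE of a log2 fold change was its size divided by the square root of F. The script was tested on simulated data. CPM are counts scaled to the library's UMIs in the tested genes after TMM. Libraries held 592733 to 1631066 UMIs, and the fewest UMIs set the widest counting error in LC replicate 1. The 17 alternatives used other scaling, filters, DESeq2 1.42.0, limma 3.58.1 (voom), a robust fit, a replicate block, a limit of 0.05, thinning to 592733 UMIs, and each tumor left out in turn. Shared stretches were sought with blastn 2.17.0 and binomial intervals were exact (scipy 1.17.1). Levels of all 10 ligands are given. Other CC ligands and receptors could be named from 10 UMIs in all, and of other lists up to 4 genes with the smallest adjusted p or the most abundant. The members and lists were chosen with earlier results of these data known. Shares, UMI ratios, the grouping of Ccl2, Ccl7, Ccl8 and Ccl12, the motifs, coding stretches and neighbors, and Ifng and Tnf were chosen after values were seen. Doses, days and ages came from the study's methods, not from the labels. Values of 2 genes of these lists are not reported here.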

Additional observations from a re-analysis of the deposited data

How the results depend on the processing

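Over 17 alternatives and 10 ligands, 135 of 166 values kept their direction and side of the limit, 5 lost the call, 20 gained it and 6 changed sign. The changes of sign were all of Ccl22, whose log2 fold change was -0.014 under upper quartile scaling, -0.10 with DESeq2 and, with a tumor left out, -0.36 to 0.87 (-0.30 and -0.36 for LC replicates 2 and 3, -0.08 and -0.02 for IP+LC replicates 2 and 3). None of the negative values was called. The count of ligands higher was 3 with all tumors, 5 with library size only, 5 with DESeq2, 6 with no filter beyond 1 UMI, 6 with limma voom, and 1 to 8 when each tumor was left out. The count lower was 0 in all. All genes called numbered 4088, 1661 after thinning to the smallest library, and 2265 to 6691 when each tumor was left out. CC receptors called numbered 5, 3 with DESeq2, 2 at a limit of 0.05, 1 after thinning and 2 to 6 with a tumor left out. Other CC ligands called numbered 1, 3 with no filter beyond 1 UMI, 0 with at least 10 UMIs in every library, 0 after thinning and 0 to 1 with a tumor left out. Receptor signaling genes called numbered 4, 1 after thinning and 2 to 12 with a tumor left out, and ligand inducers 7, 3 after thinning and 4 to 11 with a tumor left out. Fewer UMIs and fewer tumors are part of how the thinned and left-out fits are made, and other causes were not tested.

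With the replicate number as a block, 6 ligands were called higher, and 3410 genes in all. The deviations of same-numbered tumors from their group means correlated at 0.03, -0.12 and 0.11, and those of differently numbered tumors at -0.14 to 0.13. With 3 tumors a group this comparison cannot decide whether the numbers pair the samples. Ccl3 rested on 5 to 8 UMIs a tumor in LC.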

Other observations

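Over the 6 tumors, the 5 genes with the highest Pearson r to Ccl2 on the log2(CPM + 4) scale were Tmed9, Sbf1, Cct7, Vim and Fbxo5, with r from 0.998 to 0.999. The 5 nearest to Ccl6 were Oscp1, Fam32a, Rassf8, Pdhb and Socs5, with r from 0.971 to 0.987. The points share libraries and the difference between the groups, and among 11240 genes ranked over 6 points values of this size are given as a description only.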
